A study of Arabidopsis thaliana and Oryza sativa and Cucumis sativus with 30 samples.

Results

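The family comprised 9 basic helix-loop-helix (bHLH) transcription factors of Arabidopsis thaliana. RHD6 (AT1G66470) and RSL1 (AT5G37800) form its first class, and RSL2 (AT4G33880), RSL3 (AT2G14760), RSL4 (AT1G27740) and RSL5 (AT5G43175) its second. LRL1 (AT2G24260), LRL2 (AT4G30980) and LRL3 (AT5G58010) are the related LRL factors. They were chosen by name. All 9 were among 17628 genes of the table that compares rhd6 with wild-type epidermis and among 33550 genes of the sorted hair cell table. The sieved root hair table listed 7 of the 9 among its 14919 genes.

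The study sequenced RNA of root cells in 30 libraries, 3 per group, and 4 Arabidopsis groups (12 libraries) bear on these genes. All were of the Columbia background and were grown on MS medium with agarose at 22 °C in constant light for 4 to 5 days. The first group was the wild type with the WER::GFP reporter and the second was rhd6 with the same reporter. The third group was the wild type with the COBL9::GFP reporter, and the fourth was wild-type root hairs with no sort. In the first 3 groups the tips of many roots were pooled, the walls were digested with enzymes and GFP-bearing protoplasts were sorted. The WER promoter acts in the young epidermis, in hair and non-hair files alike, whereas the COBL9 promoter marks differentiating hair cells. The fourth group came from root tissue stirred in liquid nitrogen, with the broken hairs collected through a sieve, and its RNA was amplified with a different library kit. Which rhd6 allele was used is not stated in the labels.

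A root hair is a tubular outgrowth of one epidermal cell. In Arabidopsis, RHD6 and RSL1 act in the cells of hair files before the outgrowth appears and are required for hair initiation. RHD6 acts upstream of the class II genes, and RSL4 sets how long the hair grows, with RSL2 acting partly in parallel. RSL3 and RSL5 are less studied members of that class. LRL1, LRL2 and LRL3 take part in hair growth with overlapping roles, and LRL3 has been placed downstream of RHD6.

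The start regions of the members were compared beside their coding sequences. The 300 bases before the annotated start were read from the RefSeq annotation of the TAIR10.1 assembly, 5′ to 3′ on the strand of the gene. RHD6 and RSL1 are shown because they share sequence, and RSL2 and RSL3 because both were lower in rhd6. RHD6 is itself the mutated gene, so its level in rhd6 is not a response to compare with that of RSL1. Capitals mark runs of at least 10 bases that the 2 members of a pair share on the same strand.
RHD6, chr1:24794914-24795213, plus strand: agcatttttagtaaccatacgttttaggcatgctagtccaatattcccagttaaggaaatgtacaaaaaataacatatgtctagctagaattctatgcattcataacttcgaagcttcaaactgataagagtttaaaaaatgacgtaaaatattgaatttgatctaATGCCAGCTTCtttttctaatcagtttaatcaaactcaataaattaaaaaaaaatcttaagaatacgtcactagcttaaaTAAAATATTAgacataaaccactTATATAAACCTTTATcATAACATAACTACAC
RSL1, chr5:15035766-15036065, plus strand: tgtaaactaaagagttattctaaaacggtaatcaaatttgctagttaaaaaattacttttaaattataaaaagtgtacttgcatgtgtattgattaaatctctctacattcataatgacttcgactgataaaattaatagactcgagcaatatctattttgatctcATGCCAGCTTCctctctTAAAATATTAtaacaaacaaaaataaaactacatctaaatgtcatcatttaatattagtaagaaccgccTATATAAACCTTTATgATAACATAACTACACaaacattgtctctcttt
RSL2, chr4:16241170-16241469, minus strand: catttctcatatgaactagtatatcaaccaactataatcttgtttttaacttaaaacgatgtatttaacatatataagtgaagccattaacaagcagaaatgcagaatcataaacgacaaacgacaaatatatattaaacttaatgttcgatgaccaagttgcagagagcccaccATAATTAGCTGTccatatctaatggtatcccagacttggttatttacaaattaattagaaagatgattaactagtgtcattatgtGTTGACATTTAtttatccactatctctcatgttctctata
RSL3, chr2:6323398-6323697, minus strand: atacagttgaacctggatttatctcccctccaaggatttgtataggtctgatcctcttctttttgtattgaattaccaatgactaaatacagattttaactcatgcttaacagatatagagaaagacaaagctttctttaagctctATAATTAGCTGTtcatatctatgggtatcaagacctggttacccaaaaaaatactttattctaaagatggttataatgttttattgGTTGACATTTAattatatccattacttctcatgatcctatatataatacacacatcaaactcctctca

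RHD6 and RSL1 shared 4 such runs, of 15, 15, 11 and 10 bases. Both runs of 15 bases lay next to each other in either gene, with 1 base between them. RSL2 and RSL3 shared 2 runs, of 12 and 11 bases, and RSL4 and RSL5 shared 1 run of 10 bases. LRL1 and LRL2 also shared 1 run of 10 bases, made up of A and T only. Among the 32 pairs of members outside these sister pairs, the longest shared run was 7 to 12 bases with a median of 9. A run of 10 or more bases was present in 13 of those 32 pairs. By length alone, the runs of RSL2 with RSL3, RSL4 with RSL5 and LRL1 with LRL2 were thus no longer than those of other pairs. The 2 runs of RSL2 and RSL3 lay in the same order, beginning 125 and 40 bases before the start in RSL2 and 154 and 68 in RSL3. Run order was not compared with other pairs. The coding sequences were 80.2% identical between RHD6 and RSL1, 78.5% between RSL2 and RSL3, 79.3% between RSL4 and RSL5 and 80.4% between LRL1 and LRL2. LRL3 was 70.4% identical to LRL1 and 70.0% to LRL2.

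Known motifs were searched on both strands of each upstream window. The root hair element RHE, bound by RSL4 and found in hair genes, had no match in the 9 members and one in 0.915% of 27438 gene starts. The G-box CACGTG also had no match in the members, against 7.09% of all starts. The wider E-box CANNTG, which includes the G-box, was found in 5 of 9 members and in 61.9% of all starts. The auxin response element TGTCTC was found in RSL1 only among the members and in 13.0% of all starts. A further motif searched, TAAATGTA, was found in none of the 9 and in 3.71% of all starts. No annotated gene overlapped a member. Of the 50-base stretches of the members' exons, none occurred more than once for 7 members, and 0.0752% did for RSL2 and 0.0697% for RSL3, so few reads could have been shared with a near-identical copy.

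The epidermis libraries held 10562137 to 23110648 reads in listed genes. Spearman correlations across genes between libraries of a group were 0.967 to 0.990 in wild-type epidermis, 0.905 to 0.963 in rhd6, 0.943 to 0.968 in COBL9::GFP cells and 0.441 to 0.692 in sieved hairs. The labels call the libraries biological replicates. Values in epidermis are the authors' reads of a gene per 1e6, rescaled library by library and here called normalized CPM. A gene was called when the adjusted p of limma, with Benjamini-Hochberg adjustment over 17575 tested genes, was below 0.05, and this held for 4.12% of those genes in either direction. The shares called lower were 2.91% by edgeR, 5.55% by DESeq2 and 4.96% at an FDR below 0.05 in the authors' deposited table.

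The mutated gene was read first. RHD6 had 74.3, 75.5 and 85.4 normalized CPM in the wild-type libraries and 1.25, 0.940 and 1.995 in rhd6. All rhd6 libraries lay far below all wild-type ones, and 85 reads in total remained against 4350. The mean fell from 78.4 ± 6.09 (SD, n = 3) to 1.40 ± 0.542 normalized CPM, 1.78% of the wild-type mean. The difference on the log2(normalized CPM + 1) scale was -5.07 ± 0.21 (SE; 95% interval -5.57 to -4.57; limma adjusted p = 9.73e-05), which was rank 4 of all tested genes by p. The RHD6 transcript is thus low in every library labelled rhd6.

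**Figure D1:**
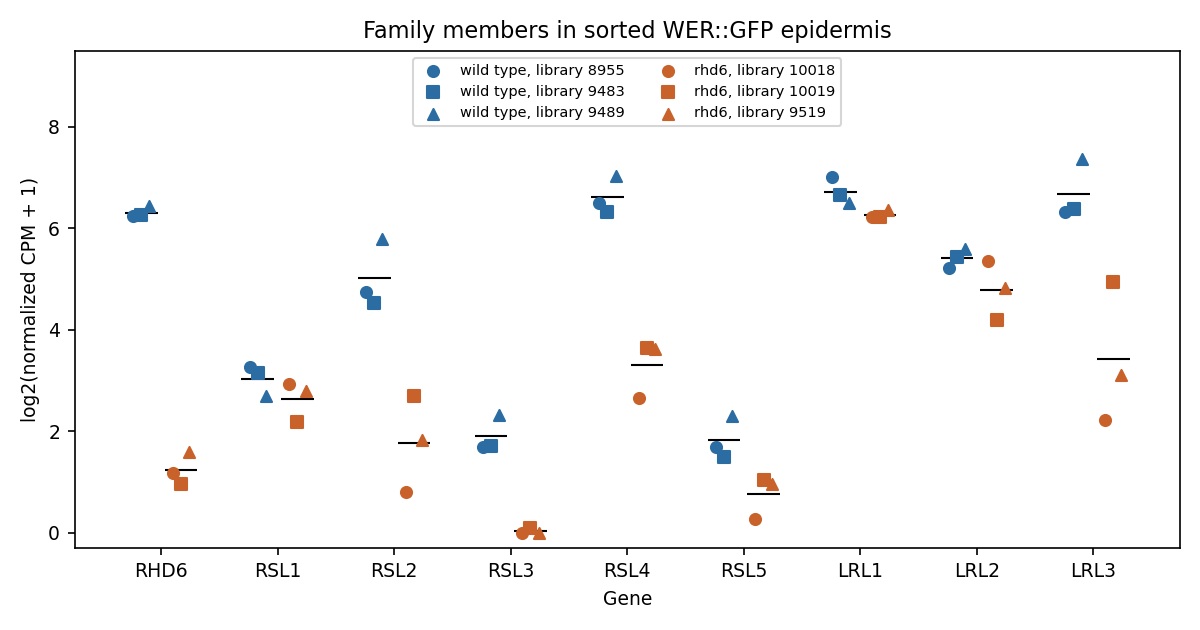
Normalized CPM of the 9 members in each of the 3 wild-type and 3 rhd6 WER::GFP libraries, drawn as log2(normalized CPM + 1), with black lines for the means of the log2 values. Groups do not overlap for RHD6, RSL2, RSL3, RSL4, RSL5, LRL1 and LRL3, and overlap for RSL1 and LRL2.

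Of the 9 members, 5 were called lower in rhd6, against 3.26% of all tested genes. None was called higher, against 0.859%, and 4 were not called. Leaving out RHD6 itself, 4 of 8 members were lower, which were RSL2, RSL3, RSL4 and LRL3. Values of all rhd6 libraries lay below all wild-type values in 7 of 9 members, and in 14.3% of tested genes. In pooled tissue, fewer cells of a type and less RNA per cell cannot be told apart. The plot of the members by library shows each value.

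RSL1, the paralog of RHD6, had 8.62, 7.81 and 5.48 normalized CPM in wild type and 6.57, 3.51 and 5.90 in rhd6. The groups overlapped, and the mean was 73.0% of the wild-type mean (log2 difference -0.41 ± 0.27 SE, limma adjusted p = 0.474). RSL1 did not show the loss seen for RHD6, and the 95% interval ran from -1.03 to 0.22.

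RSL4, which sets hair length, had 89.3, 79.4 and 130.1 normalized CPM in wild type and 5.27, 11.5 and 11.3 in rhd6. No rhd6 library reached the wild-type range, and 9.42% of the wild-type mean was left. The log2 difference was -3.31 ± 0.32 (SE, limma adjusted p = 0.00200). RSL4 was called lower in 14 of 14 settings tried, and the plot of log2 differences gives edgeR and DESeq2 beside limma.

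RSL2 had 25.8, 22.2 and 54.5 normalized CPM in wild type and 0.752, 5.45 and 2.53 in rhd6, so the groups were apart although both varied. Its mean was 8.51% of wild type, and the log2 difference was -3.25 ± 0.51 (SE, limma adjusted p = 0.0126). The call was lost without wild-type library 9489 (limma adjusted p = 0.0524) and without rhd6 library 9519 (limma adjusted p = 0.0589).

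RSL3 was a low member. It had 2.20, 2.29 and 3.98 normalized CPM in wild type, from 23, 53 and 85 reads. In rhd6 it had 1 read in library 10019 and none in the other 2 libraries. Pooled over libraries, the rhd6 to wild-type ratio was 0.584%, with a 95% counting interval of 0.0147 to 3.30%. Limma called RSL3 lower (log2 difference -1.87 ± 0.23 SE, adjusted p = 0.00440). The pseudocount of 1 limits this difference, which was -4.58 with a pseudocount of 0.1. On the recovered reads edgeR fitted -6.90 and DESeq2 -7.27, values that depend on how each tool treats counts of 0.

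RSL5 had 2.20, 1.81 and 3.94 normalized CPM in wild type and 0.201, 1.07 and 0.931 in rhd6. Each rhd6 library was below each wild-type one, and 27.6% of the wild-type mean was left. The log2 difference was -1.07 ± 0.30 (SE) and missed the threshold (limma adjusted p = 0.120). The pseudocount limits this difference too, which was -1.87 with a pseudocount of 0.1. DESeq2 called RSL5 lower, with a log2 difference of -1.88 and an adjusted p of 0.0422. The authors' deposited test gives an FDR of 0.0224, but their mark of significant genes was not set for RSL5.

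LRL1 and LRL2 were not called. LRL1 had 128, 99.2 and 89.8 normalized CPM in wild type and 73.4, 73.4 and 80.7 in rhd6. The groups did not overlap, but the 71.9% left was a difference of -0.46 ± 0.19 (SE) on the log2 scale that missed the threshold (limma adjusted p = 0.279). LRL2 had 36.1, 42.1 and 47.3 normalized CPM in wild type and 39.8, 17.4 and 27.2 in rhd6, and the groups overlapped. The rhd6 libraries 10018, 10019 and 9519 held 95.2%, 41.5% and 65.0% of its wild-type mean. Its mean was 67.3% of wild type (log2 difference -0.62 ± 0.30 SE, 95% interval -1.31 to 0.07, limma adjusted p = 0.337).

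LRL3 had 79.0, 81.8 and 163 normalized CPM in wild type and 3.66, 29.9 and 7.67 in rhd6. Rhd6 library 10019 was the highest of its group, and still below wild type. The mean was 12.7% of wild type (log2 difference -3.26 ± 0.65 SE, limma adjusted p = 0.0341). The call was lost by edgeR (adjusted p = 0.0871) and without any one of libraries 8955, 9483, 9489, 10018 and 9519, with limma adjusted p-values of 0.0705 to 0.146. The authors' deposited table gives an FDR of 3.51e-05 for LRL3.

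**Figure D2:**
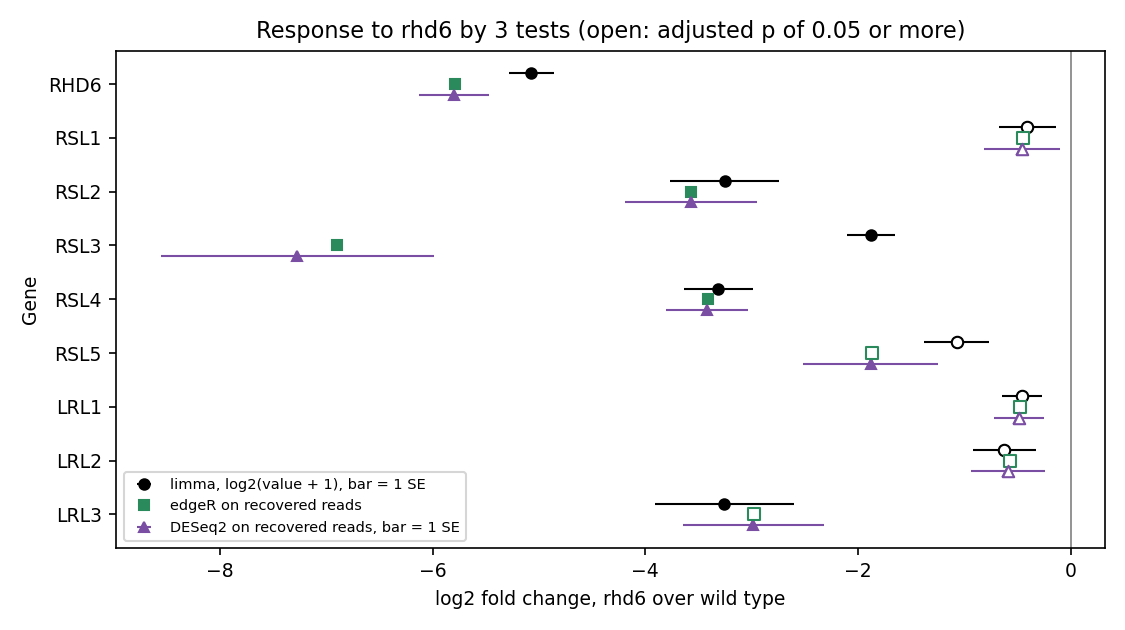
Log2 difference, rhd6 minus wild type, of each member by limma on log2(normalized CPM + 1) and by edgeR and DESeq2 on the recovered reads, with bars of 1 SE for limma and DESeq2 and open symbols for an adjusted p of 0.05 or more. By limma RHD6 lies lowest at -5.07, whereas by edgeR and DESeq2 RSL3, with 1 read in rhd6, lies lowest at -6.90 and -7.27, and by limma RSL2, RSL4 and LRL3 lie between -3.25 and -3.31, and RSL1, LRL1 and LRL2 lie between -0.41 and -0.62.

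**Figure D3:**
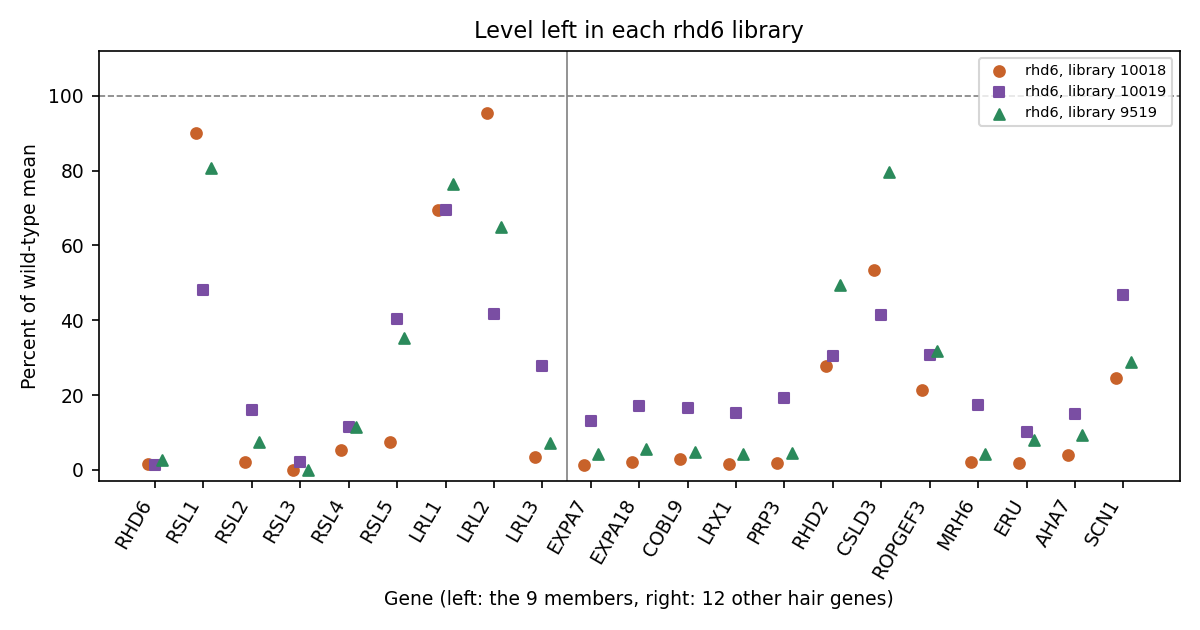
Level of the 9 members and of 12 other hair genes in each of the 3 rhd6 libraries, as a percentage of the wild-type mean. LRL1 keeps 69.5% to 76.5% in the 3 libraries, LRL2 41.5% to 95.2%, and RSL2, RSL4 and LRL3 keep 2.20% to 27.7%.

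The rhd6 libraries were not alike in what they kept, as the plot of residual levels shows. Library 10019 had the highest level of RSL2, RSL3, RSL4, RSL5 and LRL3 in its group, and the lowest of RHD6, RSL1, LRL1 and LRL2. Some of these ranks were near ties. LRL1 had 73.35 normalized CPM in library 10019 and 73.39 in 10018, and RSL4 had 11.54 in 10019 and 11.35 in 9519. For RSL3 the rank rested on 1 read. LRL3 kept 27.7% of its wild-type mean in library 10019, against 3.39% in library 10018 and 7.10% in library 9519. Wild-type library 9489 was the highest of its group for RSL2, RSL3, RSL4, RSL5 and LRL3, at 130.6% to 159.5% of the wild-type mean, and also for RHD6 and LRL2, but the lowest for RSL1 and LRL1. The 4 hair cell markers COBL9, EXPA7, EXPA18 and PRP3 moved with these libraries. They are also listed below as downstream genes, so between genotypes they do not measure the hair cell share apart from regulation. The summed level of the 4 markers was 1123, 1064 and 2233 normalized CPM in wild-type libraries 8955, 9483 and 9489, and 27.9, 254.5 and 67.4 in rhd6 libraries 10018, 10019 and 9519. All 4 were called lower in rhd6 by limma and 3 by edgeR, against 3.26% and 2.91% of tested genes. The limma count was 0 without library 9489 and 0 without 9519, 2 without 8955, and 3 without either 9483 or 10018. The part of the hair cell share in the members' differences was not tested.

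Markers of other cell types were read for the same libraries. The 4 root cap markers summed to 163 to 195 normalized CPM in wild type and 109.7 to 441 in rhd6, with the highest value in library 10019. The 4 measured stele markers summed to 166 to 354 in wild type and 125 to 274 in rhd6. Most of that sum was AHK4, with means of 231 in wild type and 178 in rhd6. In rhd6 the mean was higher for PHB (6.99 against 3.75) and CESA7 (4.52 against 2.70), and lower for COBL4 (1.13 against 4.25). The 3 cortex and endodermis markers summed to 11.95 to 14.2 in wild type and 11.7 to 34.2 in rhd6. The 3 epidermis markers WER, GL2 and CPC summed to 138 to 180.0 in wild type and 133 to 225 in rhd6. No marker of these 4 lists was called by limma, against 4.12% of tested genes. At an unadjusted limma p below 0.05, 1 root cap and 1 stele marker were higher. At least 2860 of the 17575 tested genes reached that level in either direction. DESeq2 called 1 stele marker lower and 1 higher, edgeR none.

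Sister members were compared by the difference of their log2 ratios in 10 pairs. The ratio of RHD6 to RSL1 was 3.27 ± 0.41 (SD, n = 3) on the log2 scale in wild type and -1.39 ± 0.31 in rhd6, with no overlap. RHD6 is the mutated gene, so this shift was set by the design and does not compare the regulation of the pair. The ratio of LRL1 to LRL3 was 0.04 ± 0.80 in wild type and 2.83 ± 1.41 in rhd6, and that of LRL2 to LRL3 was -1.27 ± 0.44 and 1.36 ± 1.96. For each of these 3 pairs the exact two-sided permutation p was 0.1, the smallest that 3 against 3 libraries allow, and 0.125 after adjustment over the 10 pairs. The ratio of RSL2 to RSL4 was -1.59 ± 0.31 in wild type and -1.53 ± 0.50 in rhd6, a difference of 0.06 (exact permutation p = 1). That of LRL1 to LRL2 differed by 0.17 (exact permutation p = 0.8), and the groups overlapped in these 2 pairs. The other 5 pairs, each with RSL3 or RSL5, did not overlap and also had an exact permutation p of 0.1. Both genes were low, and the sign of the difference changed with the pseudocount for RSL3 with RSL2 and with RSL4, RSL3 having 1 read in rhd6.

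**Figure D4:**
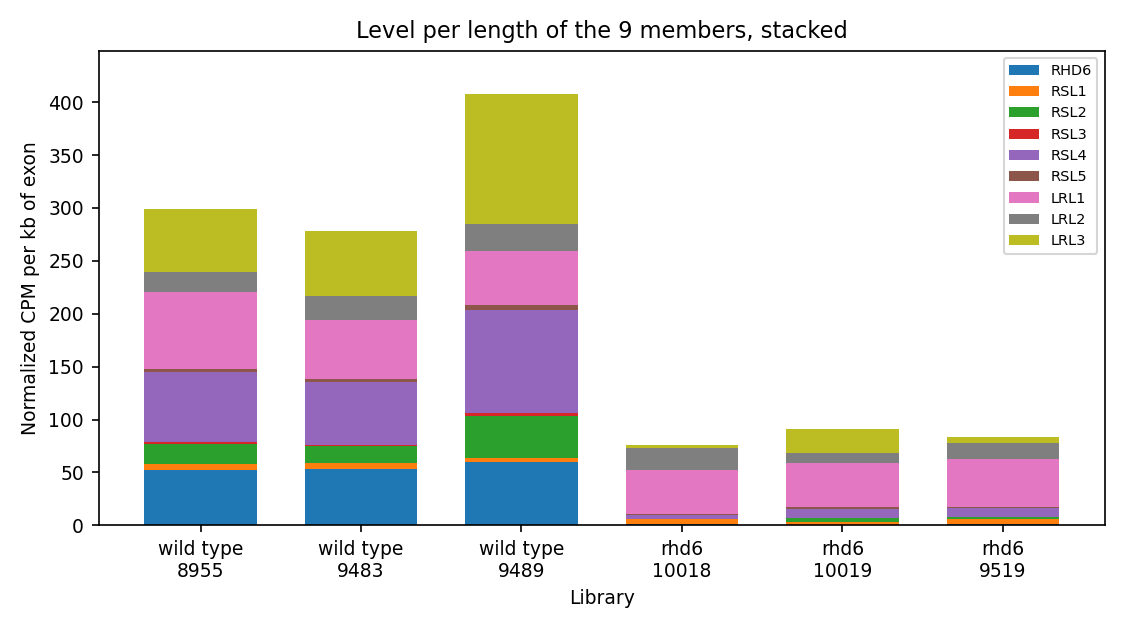
Normalized CPM per kilobase of exon of the 9 members, stacked for each WER::GFP library. LRL1 takes 12.5% to 24.1% of the family's sum in wild type and 45.8% to 54.8% in rhd6. The sum is 278 to 408 per kilobase in wild type and 76.1 to 90.6 in rhd6.

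Per kilobase of exon, the family could be ordered in the epidermis. In wild type, LRL3 had 81.6 ± 36.1 normalized CPM per kilobase, RSL4 74.5 ± 20.1, LRL1 59.7 ± 11.1 and RHD6 55.0 ± 4.27 (SD, n = 3). Lower down, RSL2 had 24.8 ± 12.8, LRL2 22.5 ± 3.01, RSL1 5.35 ± 1.19, RSL5 3.26 ± 1.39 and RSL3 1.90 ± 0.677. Neighbours in that order were apart in all libraries only between RHD6 and RSL2 and between LRL2 and RSL1. In rhd6, LRL1 came first with 42.9 ± 2.40 per kilobase, ahead of LRL2 with 15.1 ± 6.05, and these 2 did not overlap. LRL3 had 10.4 ± 10.7 per kilobase and RSL4 7.01 ± 2.67. As the stacked plot shows, LRL1 made up 18.9% ± 5.92 of the family's sum in wild type and 51.7% ± 5.14 in rhd6. RSL4 made up 22.5% ± 1.28 and 8.29% ± 2.72. The sum itself fell from 329 ± 69.4 per kilobase in wild type to 83.3 ± 7.24 in rhd6. LRL1 gained in share although its own mean was lower in rhd6.

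In hair cells sorted by COBL9::GFP, all 9 members were detected. LRL3 had 297, 72.2 and 121 FPKM in the 3 libraries, here called A, B and C, and a mean of 163 ± 118 (SD, n = 3), above 97.5% of 33550 genes. RSL4 had 208, 56.7 and 96.8 FPKM, LRL1 125, 36.5 and 62.9, and RHD6 125, 18.9 and 39.1. LRL3 exceeded RSL4, RSL4 exceeded LRL1 and LRL1 exceeded RHD6 in 3 of 3 libraries, although their ranges overlapped. LRL2 had 64.5, 30.1 and 64.5 FPKM and RSL2 had 80.7, 9.34 and 18.3. At the low end, RSL5 had 5.99, 5.79 and 13.6 FPKM, RSL1 8.98, 0.826 and 3.94, and RSL3 8.39, 0.458 and 0.736. As a measure of detection, the authors' deposited mark of expressed genes was 0 for RSL1 and RSL3 and 1 for the other 7.

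Library A stood apart in these cells. It held at least 2-fold the mean of the other 2 libraries for 7 of 9 members, and for 8.06% of 12741 genes with a mean FPKM of at least 3. The ratio was 14.1 for RSL3, 5.83 for RSL2 and 4.30 for RHD6, but 1.36 for LRL2 and 0.617 for RSL5. The summed level of the 4 hair markers was 3201 FPKM in it, against 955 in library B and 2035 in library C. The 4 root cap markers summed to 31.6 in library A, 478 in B and 251 in C. In the same order, the stele markers summed to 98.4, 50.3 and 58.2, and the cortex and endodermis markers to 11.2, 1.55 and 7.75. The epidermis markers summed to 96.4, 54.7 and 54.8, with GL2 and CPC highest in library A and WER lowest. The part of these cell types in the members' levels was not tested.

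In sieved root hairs, LRL3 and RSL2 led the family. LRL3 had 678, 158 and 234 FPKM in libraries 1, 2 and 3, above 97.7% of listed genes by its mean. RSL2 had 446, 120.4 and 56.5 FPKM, above 95.4% by its mean. LRL3 exceeded RSL2 and RSL2 exceeded RSL4 in 3 of 3 libraries, and library 1 was the highest for both LRL3 and RSL2. RSL4 had 49.9, 92.7 and 27.2 FPKM, and LRL1 had 46.5, 44.4 and 33.7. RHD6, which acts before the outgrowth, had 18.4, 39.4 and 5.30 FPKM, above 56.9%, 66.7% and 13.5% of the listed genes in the same libraries. RSL3 had 11.9, 13.9 and 10.2 FPKM. RSL5 had 19.3 FPKM in library 1 and 0.748 in library 3, and was listed at 0 in library 2. Of the listed genes, 11.3%, 8.08% and 0.516% were at 0 in libraries 1, 2 and 3. In that order, COBL9 had 178, 8.25 and 43.1 FPKM and PRP3 2994, 557 and 795. EXPA7 and EXPA18 were also highest in library 1. The stele markers SHR, AHK4, PHB and APL had 0 to 4.02 FPKM in library 1, 11.8 to 68.6 in 2 and 12.5 to 26.9 in 3. For SCR the values were 0, 20.3 and 7.83, and for CASP1 0, 33.9 and 7.74e-15. The part of other cell types in the sieved levels was not tested.

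**Figure D5:**
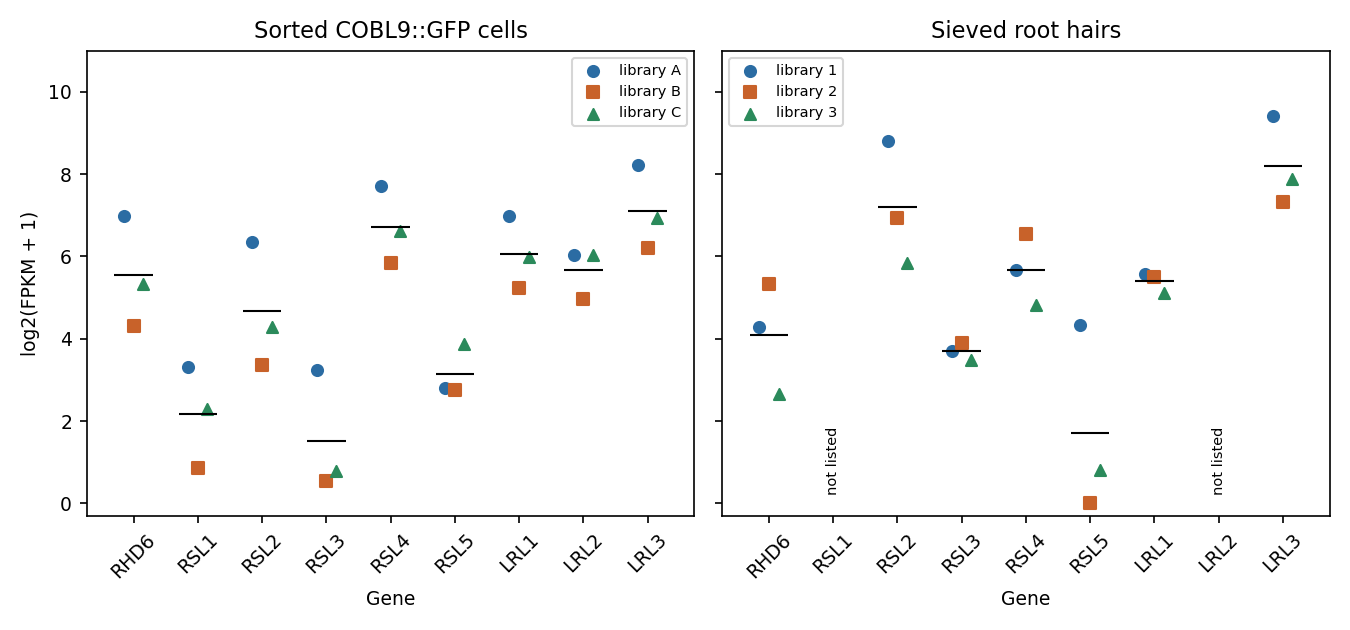
FPKM of the members in each COBL9::GFP library and each sieved hair library, drawn as log2(FPKM + 1), with black lines for the means of the log2 values. RSL1 and LRL2 have no value in the sieved hairs, whose table lists only genes with a mean of at least 3 FPKM.

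RSL1 and LRL2 were not listed in sieved hairs. The table holds only genes with a mean of 3 FPKM or more, so their level there is below that limit or was not given. LRL2 had a mean of 53.0 ± 19.8 FPKM in COBL9::GFP cells. Of 1960 genes within 1.5-fold of that level, 93.7% were listed in sieved hairs, and of 2930 genes near the RSL1 level 74.8% were. The sieved table listed 86.7% of the 12741 genes with a COBL9::GFP mean of at least 3 FPKM. With that limit, 7 of 9 members were present in both isolations, and 5 of them (RHD6, RSL2, RSL4, LRL1 and LRL3) had at least 3 FPKM in every library. Without library A of the sorted cells, RSL3 dropped out and 6 remained, and without sieved library 1, RSL5 dropped out and 6 remained. RSL4 exceeded RSL2 in 3 of 3 COBL9::GFP libraries, and RSL2 exceeded RSL4 in 3 of 3 sieved ones. The tables were normalized separately and the isolations differ in kit and cells, so no test was made between them. As the plot of hair levels shows, the spread within each isolation was wide.

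Genes around the family in the pathway were counted from lists. Of 12 hair genes listed as downstream, limma called 11 lower in rhd6, against 3.26% of tested genes, and none higher, against 0.859%. By edgeR 9 were lower, against 2.91%, and by DESeq2 11, against 5.55%. Their median log2 difference by limma was -3.70, against 0.04 over all tested genes. The hair cell markers COBL9, EXPA7, EXPA18 and PRP3 are among these 12. ERU, a receptor-like kinase of tip growth, fell from 66.7 ± 9.44 to 4.47 ± 2.85 normalized CPM (SD, n = 3; log2 difference -3.80 ± 0.43 SE, limma adjusted p = 0.00344). AHA7, a plasma membrane proton pump, fell from 242 ± 52.2 to 22.7 ± 13.5 (limma adjusted p = 0.00505). ROPGEF3, which activates ROP GTPases at the hair initiation site, fell from 78.2 ± 21.1 to 21.9 ± 4.52 (limma adjusted p = 0.00746). CSLD3, a cellulose synthase-like protein, was the only member of the list that limma did not call (log2 difference -0.83, limma adjusted p = 0.191). The limma count of lower genes was 3 without wild-type library 9489, 4 without rhd6 library 9519, and 7 without either 8955 or 9483.

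Of 13 listed upstream and parallel regulators, limma called none, against 4.12% of tested genes, and edgeR and DESeq2 called none either. At that share, a list of 13 genes is too short to show that regulators were unaffected. At least 2860 of the 17575 tested genes had an unadjusted limma p below 0.05. Of the 13 regulators, 1 was lower and 2 were higher at that level. These were ARF7, with 108 ± 11.2 normalized CPM in the wild type against 71.7 ± 11.5 in the mutant (limma adjusted p = 0.170), ARF8, with 28.6 ± 2.09 and 53.9 ± 19.4 (limma adjusted p = 0.154), and ARF5, with 49.9 ± 12.7 and 89.7 ± 27.7 (limma adjusted p = 0.198). All 3 encode auxin response factors. So does ARF19, also listed, with means of 74.6 normalized CPM in the wild type and 61.6 in the mutant (limma adjusted p = 0.508). GL2, the homeodomain repressor of hair fate in non-hair cells, had 66.4 ± 18.1 normalized CPM in the wild type against 61.9 ± 14.03 in the mutant (limma adjusted p = 0.882). Of 6 further bHLH relatives, 2 were tested, UNE12 (log2 difference 0.19) and AT1G03040 (log2 difference -0.09), and neither was called by limma, edgeR or DESeq2, nor at an unadjusted p below 0.05.

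The genes most like a member across the 6 epidermis libraries were found by Pearson's r of log2(normalized CPM + 1) among 13827 genes with a mean of at least 5. For RHD6 these were NAC048 (r = 0.999), GSTU14 (0.997) and AT5G43040 (0.997). For RSL4 they were AT2G47540 (0.999), AT4G35500 (0.999) and AT5G61260 (0.997). For RSL2 they were QWRF7 (0.999), AT5G40860 (0.998) and FLA6 (0.998), and for LRL3 they were PRP3, EXT12 (0.999) and AT5G43230 (0.999). PRP3 is the proline-rich wall protein that served as a hair marker. An r of 0.99 or more was reached by 20 genes for RHD6, 47 for RSL4, 91 for RSL2 and 59 for LRL3. All these values share the same 6 libraries and the same split between genotypes, so they are a description only. Pearson's r also ignores the size of a change. AT4G35500 had means of 28.1 normalized CPM in wild type and 16.8 in rhd6, whereas RSL4 had 99.6 and 9.38.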

How the data were processed

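RNA-seq tables deposited by the authors were used as given. Per the file headers, the rhd6 table holds, for each of 6 libraries, a value that was recovered as whole reads (100% of values within 0.01 read). It is the authors' normalized signal, counts per 1e6 reads scaled by a factor per library. It also holds the authors' log2 fold change, p-value and FDR, and a likelihood ratio score. The COBL9::GFP and sieved hair tables hold the authors' deposited FPKM. Per the submitters' processing notes, Cufflinks, edgeR, HTSeq 0.6.1, TopHat2 (versions 2.0.3 and 2.0.9) and CASAVA 1.8.2 were named without a role.

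Per the labels, the annotation was TAIR10. Exon lengths and start regions were taken here from the RefSeq TAIR10.1 assembly. Log2(normalized CPM + 1) was tested with limma 3.58.1 in R 4.3.3 for genes at 1 normalized CPM or more in at least 3 libraries. The counts recovered from the deposited values were tested with edgeR 4.0.16 and DESeq2 1.42.0 as alternatives. Intervals of read ratios cover counting error only. The limma step was tested on simulated data for this comparison with 17575 genes. It recovered 6.15% of genes shifted by 1 log2 unit, 76.1% at 2 units and 91.6% at 3 units. Unchanged genes made up 5.86% of the calls. The simulation drew each gene independently and changed 200 genes. Shifts shared by many genes of 1 library were not simulated, so these rates may not hold for the real libraries. The members, gene lists and tests were chosen with earlier results of these data known. All 9 members are named, of each list the 3 genes with the smallest p and others chosen after their values were seen, and for 4 members the 3 most similar genes.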

Additional observations from a re-analysis of the deposited data

How the results depend on the processing

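Limma called 724 genes changed in either direction. The count was 431 when genes with a mean under 5 were left out, 1348 by DESeq2, and 387 to 853 when 1 library at a time was left out (476 without 8955, 387 without 9483, 408 without 9489 and 419 without 9519). The 5 members called lower became 3 to 5 when 1 library was left out, with 3 without 9489 or 9519, and 4 when genes with a mean under 5 were left out, which removed RSL3 and RSL5. The difference between RSL2 and RSL4 turned to -0.32 with a pseudocount of 0.1 and lay between -0.23 and 0.24 without 1 library, and that between LRL1 and LRL2 lay between -0.11 and 0.47. With a pseudocount of 0.1, the difference between RSL2 and RSL3 turned to 0.81 and that between RSL3 and RSL4 to -1.14. Apart from the losses for RSL2 and LRL3 and the gain for RSL5 given above, no member's limma, edgeR or DESeq2 call changed in the settings tried. Low reads limit RSL3 and RSL5, and 3 libraries a group limit all tests. No paired analysis was possible because the columns carry library numbers that no label ties to a replicate number.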
